A study of Mus musculus with 14 samples.

Results

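The 6 genes described here encode transcription factors that act at the endothelial to haematopoietic transition: Runx1, Cbfb, Gfi1, Gfi1b, Myb and Sfpi1, the older symbol of the gene for PU.1 that is now named Spi1. They were taken by symbol, and all 6 were present among the 19424 genes listed for single cells and the 19425 genes listed for whole intra-aortic haematopoietic clusters (wIAHCs). The study sorted single cells from the mouse aorta-gonad-mesonephros region (AGM) and yolk sac (YS) on embryonic day 10 (E10, 28 to 32 somite pairs) and E11 (more than 40 somite pairs), aspirated whole clusters from slices of the aorta with an automated cell picker, and sequenced their transcripts by CEL-Seq, a method that reads the 3′ end of each transcript and counts molecules by unique molecular identifiers (UMIs).

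Non-HE, HE and EHT cells, the reporter-sorted populations, came from pooled AGMs of ICR embryos whose labelled genotype, Gfi+/tomato/ Gfi1b+/GFP, holds one Gfi1:tomato and one Gfi1b:GFP reporter allele; the methods give it for the fathers, mated to wild-type females. Non-haemogenic endothelium (non-HE) was Cdh5+Gfi1-Gfi1b-c-kit-, haemogenic endothelium (HE) was Cdh5+Gfi1+Gfi1b-c-kit-, and cells in endothelial to haematopoietic transition (EHT) were Cdh5+Gfi1+Gfi1b-c-kit+. The remaining populations came from C57BL/6 wild-type embryos: c-kit+CD31+ IAHC cells at both stages, c-kit+ IAHC cells at E11, c-kit+ YS haematopoietic stem and progenitor cells (HSPCs), and E11 c-kit+Cdh5+ pre-HSCs indexed as CD45- (type I) or CD45+ (type II). The wIAHCs were picked from C57BL/6 wild-type aortas stained for c-kit. Strain, reporter alleles and population therefore cannot be told apart between the reporter-sorted cells and the wild-type cells, and by that genotype one copy each of Gfi1 and Gfi1b carried a reporter on which the cells were also gated.

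RUNX1 binds DNA as a heterodimer with CBFβ, the product of Cbfb, and this core binding factor is required for blood to emerge from aortic endothelium. GFI1 and GFI1B are related zinc finger repressors that recruit the demethylase LSD1 (Kdm1a) and its partner CoREST (Rcor1) and silence endothelial genes in emerging blood cells. MYB sustains definitive progenitors, and PU.1 is an ETS-family factor that acts in stem cells and drives myeloid and lymphoid genes.

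In the GENCODE annotation of the mm10 build (GRCm38), Runx1 lies on the minus strand of chr16:92601466-92826149, Cbfb on the plus strand of chr8:105170674-105217989, Gfi1 on the minus strand of chr5:107716657-107726036, Gfi1b on the minus strand of chr2:28609450-28621982, Myb on the minus strand of chr10:21124935-21160984, and Sfpi1 (as Spi1) on the plus strand of chr2:91082390-91115756. None of them overlapped another gene on its own strand except Cbfb, which contains the predicted genes Gm22063 and Gm24629; Runx1, Gfi1 and Myb overlap Gm26626, A430072P03Rik and Gm26577 on the opposite strand. RefSeq promoter windows in GRCm38.p6, here the 250 bases before each annotated start, were at hand for 5 of the 6 genes (7 windows). They were searched on both strands for the letters TGTGGT (bound by RUNX factors), GAGGAA (PU.1), TAACNG (MYB) and AAATCA (GFI1 factors). Across all 32851 windows of that length, 14% held TGTGGT, 23.3% GAGGAA, 20% TAACNG and 12.4% AAATCA. The 7 windows held 4 matches, none of which overlapped another: AAATCA in the Gfi1b window, GAGGAA in the Cbfb window and in the proximal Runx1 window, and TAACNG in the distal Runx1 window, whose last bases lie in an annotated Runx1 exon. The 3 windows printed here, 5′ to 3′ with matched letters in capitals, belong to genes whose levels separated HE from EHT cells. The first is Gfi1b at chr2:28621983-28622232 (minus strand), with its match starting 34 bases before the start. The second is the proximal Runx1 window at chr16:92697330-92697579 (minus strand), with its match, on the opposite strand, 46 bases before the start. The third is Myb at chr10:21160985-21161234 (minus strand), with a GC content of 81.2% and no match.
Gfi1b: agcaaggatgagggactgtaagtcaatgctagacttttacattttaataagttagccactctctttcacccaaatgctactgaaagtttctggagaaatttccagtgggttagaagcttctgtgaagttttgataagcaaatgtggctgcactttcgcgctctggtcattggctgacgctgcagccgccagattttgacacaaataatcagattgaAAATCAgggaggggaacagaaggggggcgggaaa
Runx1: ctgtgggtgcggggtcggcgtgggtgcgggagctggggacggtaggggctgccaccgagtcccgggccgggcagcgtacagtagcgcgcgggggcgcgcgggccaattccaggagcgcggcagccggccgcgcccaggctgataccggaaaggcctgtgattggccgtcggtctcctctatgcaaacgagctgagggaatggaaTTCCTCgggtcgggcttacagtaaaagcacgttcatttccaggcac
Myb: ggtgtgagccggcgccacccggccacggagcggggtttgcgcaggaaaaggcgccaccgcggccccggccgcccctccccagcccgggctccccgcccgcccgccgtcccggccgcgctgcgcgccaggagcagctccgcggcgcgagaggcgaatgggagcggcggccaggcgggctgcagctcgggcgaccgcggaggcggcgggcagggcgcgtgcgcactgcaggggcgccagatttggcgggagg

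The single-cell tables held 546 E10 cells of 3000 transcripts each and 575 E11 cells of 5000 each, so levels are given as transcripts per cell within a stage and per 10000 transcripts across stages. Each population came from 1 sample, shared by type I and type II pre-HSCs, and was split over 1 to 5 sets from pooled embryos, called sorted sets here. Differences between populations therefore carry no test. The sets were read from the prefixes of the column names, which do not say whether they were separate sorts. Intervals (95%, exact Poisson for means, exact conditional for ratios and Clopper-Pearson for shares) cover counting error only. A gene is said to be higher or lower below when the ratio of means was at least 2-fold and at least 20 transcripts were seen over both populations. The median number of genes per cell lay between 1752 and 1846.5 at E10 and between 2162.5 and 2427.5 at E11. At E10 the 18 endothelial genes of a list chosen from known markers followed the labels: their sum was 53 transcripts per cell in E10 non-HE, 39.1 in HE, 11.6 in EHT, 6.71 in IAHC and 0.56 in YS cells. At E11 the sum was higher in HE (79.8) than in non-HE (63.3) and lower in EHT (25.9). The E10 non-HE columns carry an early E11 name although the label gives E10. Stage names of columns differ within other labels too. Part of the E10 EHT columns carry a late E10 name, and the others the stage name of the HE columns. Part of the E11 non-HE columns carry a late E11 name, as E11 HE and EHT columns do, and the others a different E11 name. Populations compared within a stage were thus not matched by column name.

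Runx1 was near the limit of detection in non-HE, low in HE, and at least 2-fold above HE in EHT and every haematopoietic population except E10 YS cells, which lay just under that. At E10 its mean was 0.0233 transcripts per cell in non-HE (1 of 43 cells), 0.245 in HE (17 of 98), 0.733 in EHT (98 of 191), 0.616 in IAHC and 0.468 in YS cells. At E11 it was 0 in non-HE (no transcript in 30 cells, upper interval limit 11.6% for the share with a detected transcript), 0.174 in HE, 0.826 in EHT, 0.758 in type I and 0.655 in type II pre-HSCs, 0.766 in c-kit+CD31+ IAHC cells, 0.753 in c-kit+ IAHC cells and 0.609 in YS cells. From E11 EHT down to YS cells, no population differed from its neighbour in this order beyond the interval of their ratio, and the step from YS to HE was the first that did (log2 ratio 1.81, interval 0.64 to 3.15). In the E10 HE sets, Runx1 was detected in 9 of 37 and 8 of 61 cells, and in the 3 E10 EHT sets in 31 of 64, 20 of 40 and 47 of 87 cells, so the sets of these populations did not overlap. Where Runx1 was detected, the mean was 1.41 transcripts in E10 HE cells and 1.43 in E10 EHT cells.

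**Figure D1:**
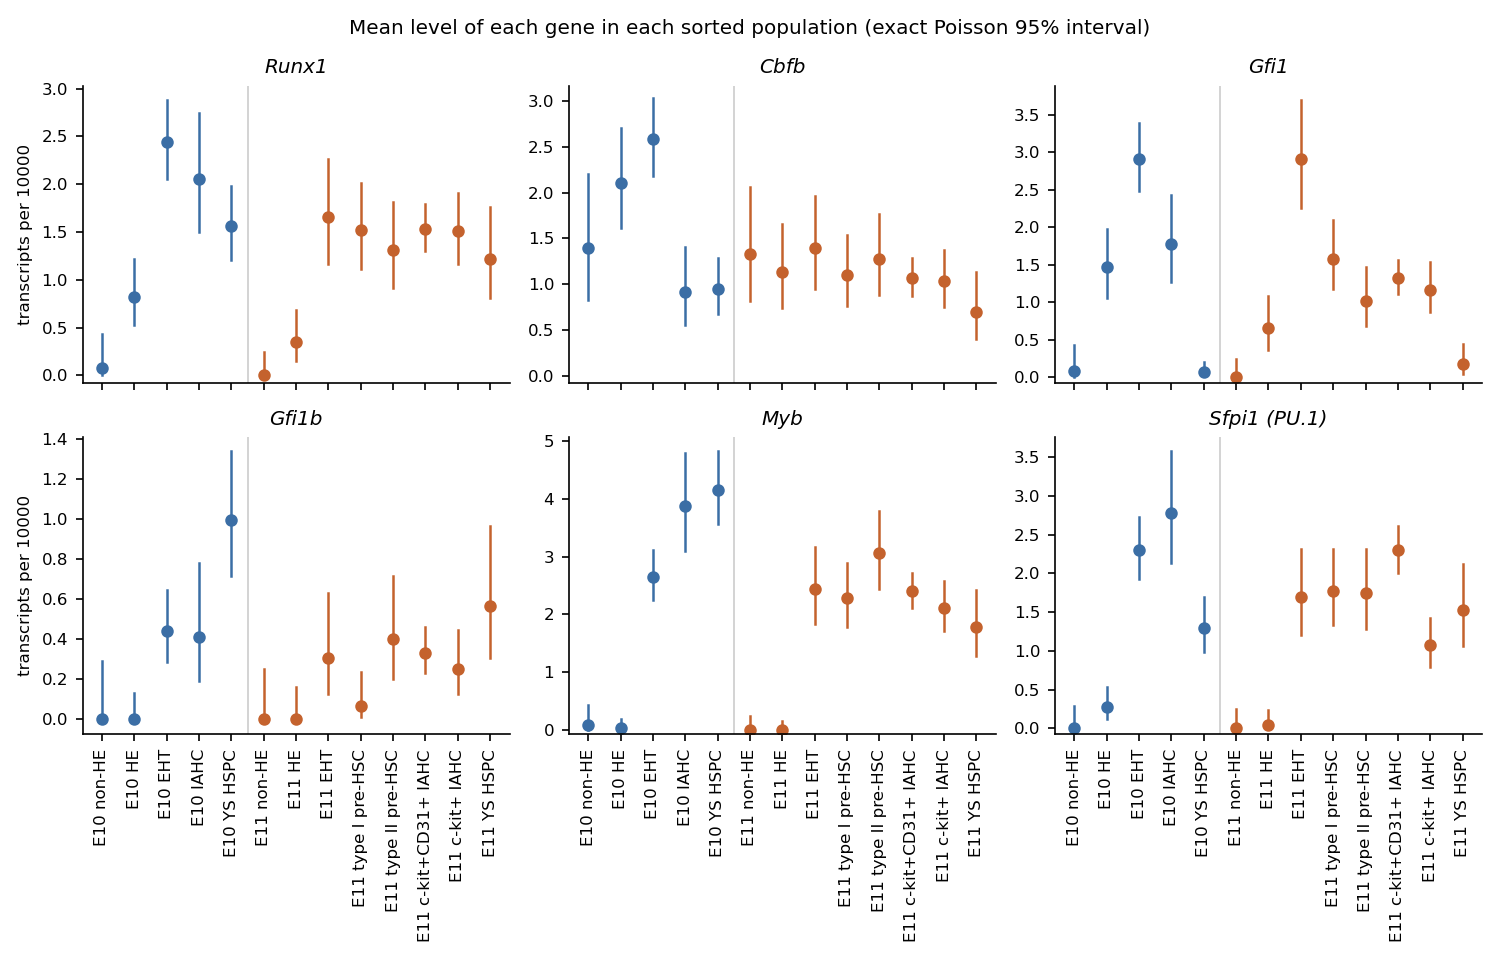
Mean level of each of the 6 genes (vertical axis, transcripts per 10000 transcripts) in the 13 sorted populations, E10 in blue and E11 in orange; bars are exact Poisson 95% intervals. Gfi1b, Myb and Sfpi1 sit at or near 0 in non-HE and HE cells, Gfi1 is near 0 in YS HSPCs at both stages, and Cbfb is detected in every population.

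Cbfb, the non-DNA-binding subunit, did not follow Runx1. Its mean at E10 was 0.419 transcripts per cell in non-HE, 0.633 in HE, 0.775 in EHT, 0.274 in IAHC and 0.284 in YS cells. At E11 it lay between 0.348 in YS cells and 0.696 in EHT cells, and no neighbouring populations in that order differed beyond the interval of their ratio. Cbfb was thus detected in endothelium that held almost no Runx1. The 2 E10 non-HE sets differed, with Cbfb in 11 of 28 and 1 of 15 cells, and without the larger set the log2 ratio of HE over non-HE moved from 0.60 to 2.25. E10 IAHC cells had less Cbfb than E10 EHT cells (20 transcripts in 73 cells against 148 in 191, log2 ratio -1.50, interval -2.25 to -0.82), the only one of the 6 genes that was lower there; 15.8% of the 6817 genes measured were also lower.

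Gfi1 was near 0 in non-HE, present in HE, highest in EHT and near 0 again in the yolk sac. At E10 its mean was 0.0233 transcripts per cell in non-HE, 0.439 in HE, 0.874 in EHT, 0.534 in IAHC and 0.0213 in YS cells. At E11 it was 0 in non-HE, 0.326 in HE, 1.46 in EHT, 0.790 in type I and 0.509 in type II pre-HSCs, 0.662 in c-kit+CD31+ IAHC cells, 0.584 in c-kit+ IAHC cells and 0.0870 in YS cells. EHT cells stood above the next population at both stages, by a log2 ratio of 0.71 over E10 IAHC cells (interval 0.20 to 1.25) and of 0.88 over E11 type I pre-HSCs (interval 0.33 to 1.44). EHT cells were gated as Gfi1+ and the IAHC cells and pre-HSCs were not, so gate, reporter allele and population cannot be told apart here. A single E11 EHT cell held 11 Gfi1 transcripts, the most of any of the 6 genes in a cell. Although HE cells were gated as Gfi1+, a Gfi1 transcript was seen in 27 of 98 E10 and 9 of 46 E11 HE cells.

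Gfi1b, the paralogue of Gfi1, showed another order. No Gfi1b transcript was found in 98 E10 HE cells (upper interval limit 3.69%) or in 46 E11 HE cells (7.71%), nor in non-HE cells. These limits hold for cells with a detected transcript, not for cells that express the gene. It was detected in 19 of 191 E10 EHT cells and 6 of 46 E11 EHT cells, all sorted as Gfi1b reporter negative. Its highest mean was in YS cells at both stages, with 0.298 transcripts per cell at E10 and 0.283 at E11. At E10, YS cells exceeded EHT cells, the next population, by a log2 ratio of 1.19 (interval 0.44 to 1.96). Among E11 pre-HSCs Gfi1b was seen in 2 of 62 type I and 10 of 55 type II cells. The sorted sets held it in 0% to 5% of type I and 10% to 24% of type II cells, so they did not overlap, but the 13 transcripts were too few for a call (log2 ratio 2.63, interval 0.44 to 5.85). Thinned to 3000 transcripts per cell, 2 and 4 transcripts remained (1.17, interval -1.63 to 4.6).

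**Figure D2:**
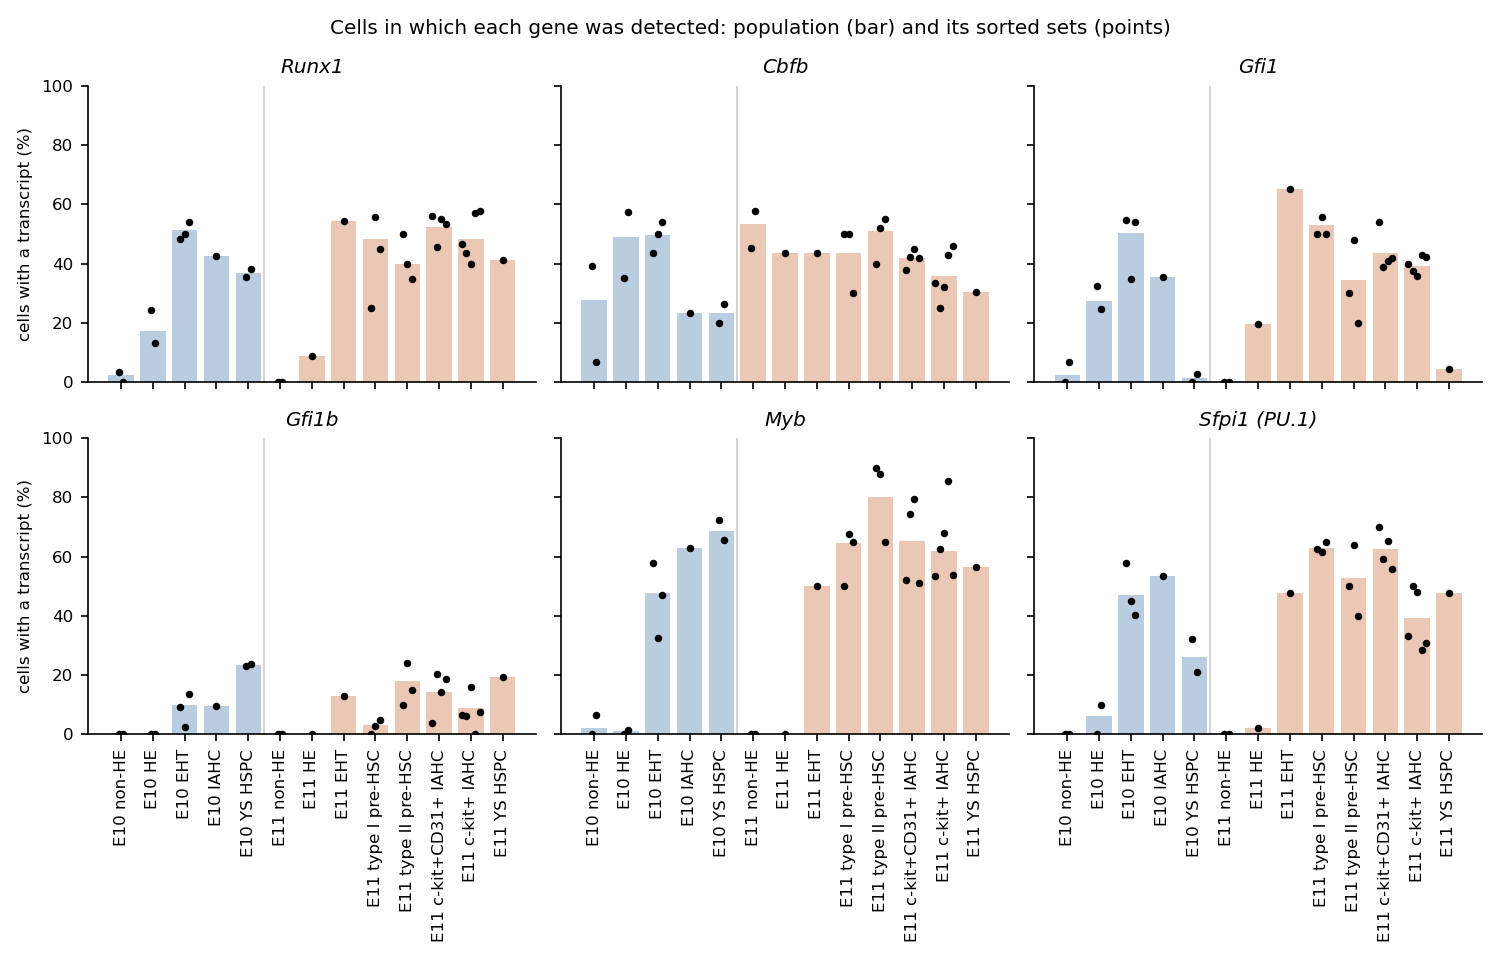
Share of cells with at least 1 transcript (vertical axis, percent) in each population (bars, E10 blue, E11 orange) and in each of its sorted sets (black points). The sorted sets of EHT cells lie above those of HE cells for Runx1, Gfi1, Gfi1b, Myb and Sfpi1 at E10, and Cbfb does not separate them.

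Myb was absent or nearly so from endothelium and high in all cells sorted as c-kit+. It was found in 1 of 43 non-HE and 1 of 98 HE cells at E10, and in none of 30 non-HE and 46 HE cells at E11. Its mean was 0.796 transcripts per cell in E10 EHT cells, 1.16 in E10 IAHC and 1.25 in E10 YS cells, the last 2 not differing beyond the interval of their ratio. At E11 it lay between 0.891 in YS cells and 1.53 in type II pre-HSCs. A Myb transcript was detected in 44 of 55 type II pre-HSCs (80.0%, interval 67.0% to 89.6%), the largest share of any of the 6 genes in a population. The sets of c-kit+CD31+ IAHC cells ranged from 51.2% to 79.6%, so sets of a single population also spread widely.

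Sfpi1 had its highest mean in c-kit+CD31+ IAHC cells at both stages. At E11 its lowest mean among cells sorted as c-kit+ was in the c-kit+ IAHC cells. At E10 its mean was 0 transcripts per cell in non-HE, 0.0816 in HE, 0.691 in EHT, 0.836 in IAHC and 0.390 in YS cells. All 6 positive E10 HE cells came from 1 of the 2 sets (6 of 61 cells against 0 of 37). At E11 the means were 0.0217 in HE, 0.848 in EHT, 0.887 in type I and 0.873 in type II pre-HSCs, 1.1 in c-kit+CD31+ IAHC, 0.539 in c-kit+ IAHC and 0.761 in YS cells. E11 EHT cells also held 6.04 macrophage-marker transcripts per cell over 11 genes, 9 of them detected, against 0 to 1.3 in the other populations, and 3 of their 46 cells had at least 4 such markers. Without those 3 cells the macrophage sum in E11 EHT was 1.5 and the Sfpi1 mean 0.791 transcripts per cell.

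Runx1 and Gfi1 were higher in HE than in non-HE cells at E10, and at E11 both had too few transcripts for a call. At E10, 3 of the 6 genes had enough transcripts, and 2 were higher in HE: Gfi1 with 43 against 1 transcript (log2 ratio 4.24, interval 1.68 to 9.57) and Runx1 with 24 against 1 (3.40, interval 0.78 to 8.76). Of all 4819 genes measured, 9.71% were higher and 5.83% lower. The Gfi1 ratio follows the gate, which split these cells on the Gfi1 reporter. Without the larger HE set neither gene reached 20 transcripts, and without the smaller set only Gfi1 did. Other lists moved in the same step: 3 of 18 endothelial genes were lower in HE at E10, 1 of 1 measured erythroid marker was higher at both stages (0.116 and 0.776 transcripts per cell over the list in E10 non-HE and HE, 0.2 and 0.761 at E11) and 1 mesenchymal marker lower at both (1.28 and 0.520, 2.53 and 1.46); their part was not tested. At E11, Gfi1 had 15 and Runx1 8 transcripts in HE against 0 in non-HE, both too few for a call, and Cbfb, the one gene with enough transcripts, did not differ beyond its interval (log2 ratio -0.24, interval -1.14 to 0.68); 7.32% of 4082 genes were higher and 5.05% lower.

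From HE to EHT most of the genes were higher together. At E10 all 6 were measured and 4 were higher in EHT: Runx1 (24 transcripts in HE, 140 in EHT), Gfi1b (0 and 25, at least 4.28-fold, with the 0 set to 3 transcripts), Myb (1 and 152) and Sfpi1 (8 and 132), where 764 of all 7268 genes (11%) were higher and 9.22% lower. Gfi1 lay just under the limit (log2 ratio 0.99, interval 0.50 to 1.51), and Cbfb did not differ beyond its interval (0.29, interval -0.14 to 0.74). The Gfi1 set means ran from 0.410 to 0.486 in HE and from 0.625 to 1.02 in EHT cells. Without the smaller HE set (37 cells) Gfi1 passed the limit. Without the larger (61 cells) the Gfi1b bound fell under 2-fold. At E11, 4 of 5 measured genes were higher where 8.71% of 4731 genes were (14.1% were lower): Runx1 (8 and 38), Gfi1 (15 and 67, log2 ratio 2.16, interval 1.34 to 3.07), Myb (0 and 56, at least 18.7-fold) and Sfpi1 (1 and 39). Thinned to 3000 transcripts per cell, Sfpi1 had 0 and 16 transcripts, too few for a call. Cbfb again did not differ beyond its interval (0.30, interval -0.49 to 1.1), and Gfi1b had 0 and 7 transcripts. The gate between these populations was c-kit, and no gene of the 6 was lower in EHT cells at either stage.

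**Figure D3:**
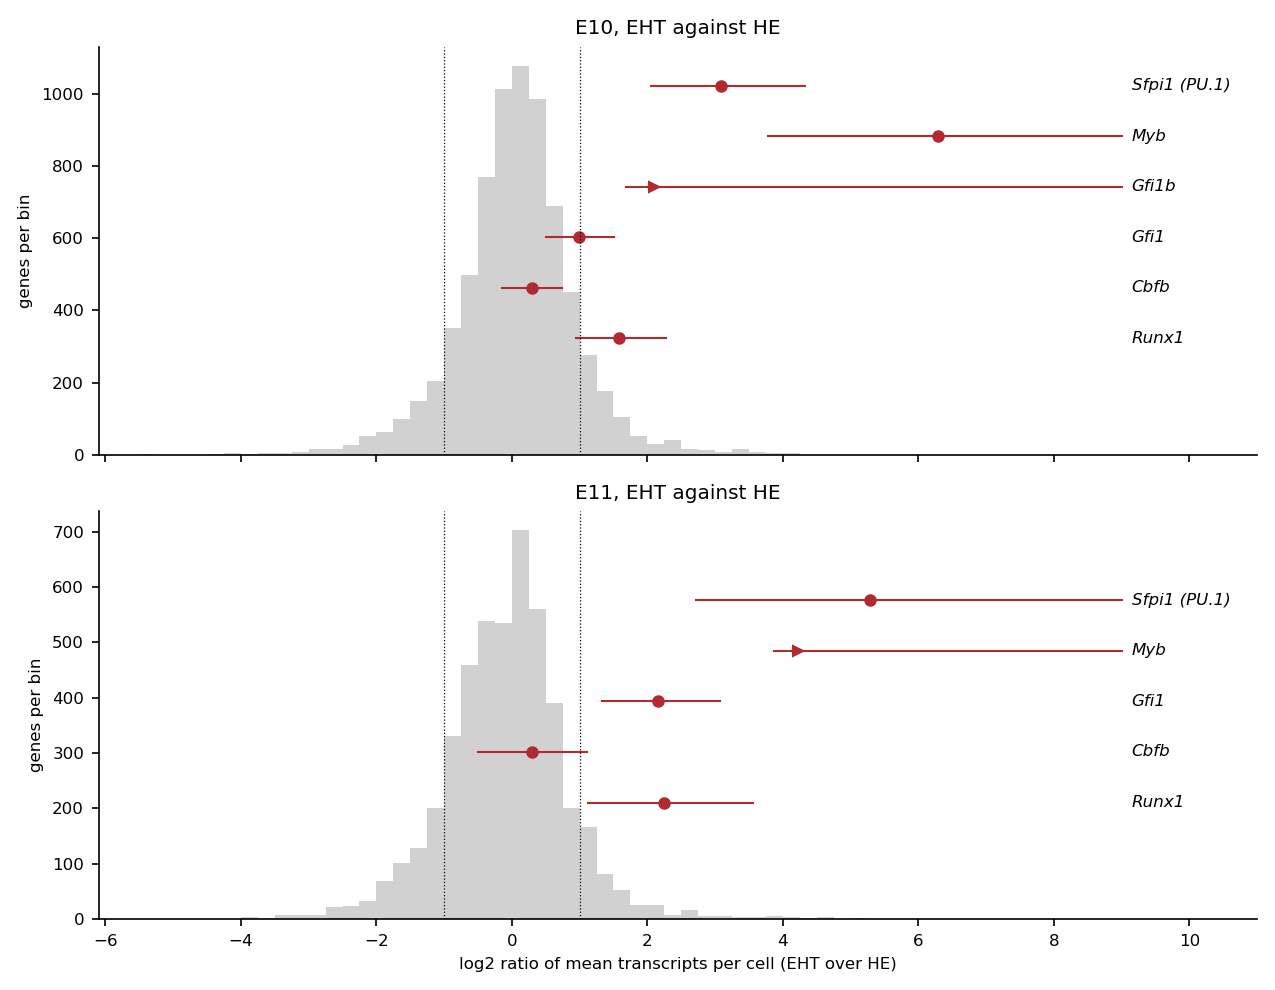
Distribution of log2 ratios of mean transcripts per cell, EHT over HE (horizontal axis), for all genes with at least 20 transcripts (grey, genes per bin of 0.25) and for the 6 genes (red points with exact 95% intervals, not read against the vertical axis and drawn no further than 9; triangles are lower bounds for genes at 0 in HE; dotted lines mark 2-fold). Runx1, Myb and Sfpi1 lie right of the 2-fold line at both stages and Cbfb left of it; Gfi1b had too few transcripts at E11 and is not drawn there.

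Genes around these factors were read in 3 lists. Of 20 haematopoietic genes known to depend on these factors, 13 were measured between E10 HE and EHT, and 9 were higher and none lower in EHT (median log2 ratio 1.54, against 0.07 over all 7268 genes). Among them Ikzf1, a lymphoid and stem cell regulator, went from 3 to 59 transcripts (log2 ratio 3.33), Nfe2, a megakaryocytic and erythroid factor, from 3 to 55 (3.23), Rac2, a blood-restricted GTPase, from 4 to 61 (2.97), and Spn, which encodes CD43, from 3 to 45 (2.9). At E11, 4 of 6 measured were higher, led by Nfe2 (3.52), Coro1a, an actin regulator of leukocytes (3.38), and Spn (2.89). Macrophage markers were higher in EHT cells too, 3 of 3 measured at E10 (0.235 against 0.497 transcripts per cell over the list in HE and EHT) and 4 of 4 at E11 (0.0870 against 6.04); without the 3 E11 EHT cells with at least 4 of them, 1 macrophage marker was measured and higher (sum 1.5 in EHT), and 4 of 6 haematopoietic genes were still higher. Erythroid markers were lower in EHT cells at E10, 2 of 2 measured (0.776 and 0.0681 in HE and EHT), and mesenchymal markers at both stages, 2 of 2 each (0.520 and 0.0576 at E10, 1.46 and 0.326 at E11). The part of these cell types in the counts was not tested. Endothelial genes went the other way, with 16 of 18 lower at E10 and 17 of 18 at E11 and none higher. At E10 the largest were Cav1 (-4.08), Gja5 (-3.55), Sox17 (-2.81) and Gja4 (-2.62), genes of caveolae, arterial gap junctions and arterial fate. Partners and corepressors of the factors did not share one direction: of 10 measured at E10 only Cbfa2t2, of the ETO corepressor family, was higher (5 and 20 transcripts, log2 ratio 1.04), and of 8 measured at E11 none was higher and 3 were lower, Rcor1 (-1.32), the acetyltransferase gene Kat6a (-1.22) and Kdm1a (-1.08).

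After EHT few of the 6 genes passed the 2-fold limit. In E10 IAHC against EHT cells none was higher, where 5.46% of genes were, and Cbfb was lower (log2 ratio -1.50, as above). Myb was 0.55 above on the log2 scale (interval 0.15 to 0.94) and Gfi1 at -0.71 (interval -1.25 to -0.20), both short of that limit. None of 5 measured genes was higher or lower in E11 type I pre-HSCs against EHT cells (background 7.41% and 12.6%) or in type II against type I (3.42% and 4.11%). In E11 c-kit+CD31+ IAHC against EHT cells, Gfi1 was lower (log2 ratio -1.14, interval -1.57 to -0.69; 13.5% of 7617 genes were lower), and the other 5 genes stayed within intervals that included 0. For Gfi1 in type II against type I pre-HSCs the log2 ratio was -0.63 (interval -1.36 to 0.06), within the limit, and without the type II set of 25 cells it was -1.25. With these cells thinned to 3000 transcripts it was -0.26 (interval -1.17 to 0.63). Thinned to 3000 transcripts per cell, Gfi1 was lower in type I than in EHT cells (-1.1, against -0.88 unthinned) and Sfpi1 higher in c-kit+CD31+ IAHC than in EHT cells (1.08, against 0.44). These populations already had equal depth, and that single random draw kept 16 of 39 Sfpi1 transcripts in EHT and 148 of 231 in c-kit+CD31+ IAHC cells. Markers of other cells differed in the same comparisons. Against EHT cells, erythroid markers were higher in E10 IAHC cells (2 of 2, 1.63 against 0.0681 transcripts per cell) and in type I pre-HSCs (3 of 3, 3.63 against 0.196). Macrophage markers were lower in type I pre-HSCs (4 of 4, 0.790 against 6.04) and in E11 c-kit+CD31+ IAHC cells (4 of 6), but without the cells holding at least 4 of them the EHT sum was 1.5 and 1 of 1 and 0 of 2 were lower. In those IAHC cells 3 of 4 mesenchymal markers were higher. Their part in the ratios of the 6 genes was not tested.

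The 2 E11 IAHC sorts differed in Sfpi1 alone among the 6. Its mean was 1.1 transcripts per cell in c-kit+CD31+ cells (sets 0.767 to 1.7) and 0.539 in c-kit+ cells (sets 0.286 to 0.760), so that the sets did not overlap. The log2 ratio was 1.09 (interval 0.64 to 1.6), and 7.28% of 7774 genes were higher and 3.28% lower. Without the highest c-kit+CD31+ set it was 0.84, under the limit, and with all cells thinned to 3000 transcripts it was 1.64. Both sorts already had equal depth, and that single random draw kept 21 of 48 Sfpi1 transcripts in c-kit+ and 148 of 231 in c-kit+CD31+ cells. In the same comparison 6 of 16 measured endothelial genes were higher in the c-kit+CD31+ cells, and none of 15 haematopoietic genes was higher or lower. Of the markers of other cells, 3 of 6 mesenchymal ones were lower in c-kit+CD31+ cells (0.945 against 1.75 transcripts per cell over the list) and 1 of 2 erythroid ones (0.323 against 0.708), while 1 of 3 macrophage markers was higher (1.0 against 0.854); their part in the Sfpi1 ratio was not tested, and without the cells holding at least 4 macrophage markers that ratio was 1.06. The rule stated for choosing IAHC cells, more than 1 Gpr56 transcript and at most 2 of each gene taken as foreign, was passed by 140 of 201 c-kit+CD31+ and 47 of 89 c-kit+ cells, and among these the Sfpi1 log2 ratio was again 1.09.

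Aortic and yolk sac progenitors differed most in Gfi1 and, in the other direction, in Gfi1b. At E10, 26 of 73 IAHC cells and 2 of 141 YS cells had a Gfi1 transcript (log2 ratio 4.65, interval 3.0 to 6.99). Sfpi1 was also higher in IAHC cells (1.1, interval 0.55 to 1.7; 9.74% of 5474 genes were higher), and fell under the limit without the YS set of 76 cells (0.91) and among the 54 IAHC cells that pass the stated rule (0.996). Gfi1b was lower in IAHC cells (-1.27, interval -2.50 to -0.21; 9.19% of genes were lower), but was -0.84 among those 54 cells. Runx1, Cbfb and Myb did not differ beyond their intervals. At E11 Gfi1 was again higher in c-kit+CD31+ IAHC than in YS cells (133 transcripts in 201 cells against 4 in 46, log2 ratio 2.93, interval 1.54 to 4.82; 18.6% of 7286 genes were higher and 4.05% lower), and Gfi1b lay at -0.78 (interval -1.75 to 0.27). Erythroid markers also differed, with 2 of 5 lower and 1 higher in IAHC than in YS cells at E10 (1.63 against 2.23 transcripts per cell over the list) and 5 of 5 lower at E11 (0.323 against 5.54), while macrophage markers went both ways (1 higher and 1 lower of 3 at E10, 1 higher and 2 lower of 3 at E11) and 4 of 4 mesenchymal markers were higher at E11 (0.945 against 0.13). Their part in the ratios of the 6 genes was not tested. All 9 endothelial genes measured at E10 were higher in IAHC than in YS cells, among them Vwf (69 and 1 transcripts) and Cdh5 (90 and 4). Of 13 haematopoietic genes, 4 were lower in IAHC cells: Myc, Mpo, Rac2 and Itga2b, with log2 ratios of -2.0, -1.62, -1.59 and -1.21.

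Stages were compared after each E11 cell was thinned to 3000 transcripts in a single random draw, which adds counting noise of its own. Over all genes the median log2 ratio of E11 over E10 was -0.24 in HE, -0.35 in EHT, -0.26 in IAHC and -0.45 in YS cells, so the values below are to be read against that shift. In the thinned cells Myb in YS cells was the clearest difference, with a mean of 0.413 transcripts per cell at E11 and 1.25 at E10 (log2 ratio -1.60, interval -2.36 to -0.91), and Gfi1b was also lower there (-1.19, interval -2.72 to 0.05), where 21.1% of 4844 genes were (3.8% were higher). Per 10000 transcripts, Myb in YS cells was at 4.16 at E10 and, at E11, at 1.78 unthinned and 1.38 thinned. Gfi1b there was at 0.993 at E10 and, at E11, at 0.565 unthinned and 0.435 thinned. Both genes were thus closer between stages before thinning. In HE cells Runx1 (-1.17, interval -2.92 to 0.25) and Gfi1 (-1.01, interval -2.17 to 0.00) were lower, where 14.5% of 4852 genes were (5.79% were higher). Unthinned E11 HE levels per 10000 were slightly lower still, 0.348 for Runx1 and 0.652 for Gfi1, against 0.362 and 0.725 thinned. In EHT cells Gfi1b was lower (-1.01, interval -3.38 to 0.71; 17.7% of 6617 genes were, and 3.78% were higher), Sfpi1 lay just inside the limit (-0.99, interval -1.84 to -0.24), and Gfi1 was level (0.10, interval -0.42 to 0.59). No gene of the 6 was higher or lower in IAHC cells (4.75% and 8.86% of 6341 genes were), where Myb lay at -0.59 (interval -0.99 to -0.20). In non-HE cells only Cbfb had enough transcripts, at 0.26 (interval -0.84 to 1.33), where 5.27% of 2563 genes were higher and 9.48% lower. Markers of other cells also moved with stage: erythroid in YS cells (2 of 5 higher and 1 lower, 2.23 and 3.48 transcripts per cell at E10 and E11), macrophage in EHT cells (4 of 5 higher and 1 lower, 0.497 and 3.76; without the cells with at least 4 markers, 1 of 3 higher and 1 lower, 0.458 and 0.930), and in IAHC cells mesenchymal (4 of 4 higher, 0.0685 and 0.562), erythroid (2 of 2 lower, 1.63 and 0.219) and macrophage markers (1 of 2 lower). In HE cells 1 of 3 mesenchymal markers (0.520 and 0.957) and 3 of 18 endothelial genes were higher at E11. Their part in the stage ratios was not tested.

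Single cells were next scored for how many of the 6 genes they held. At least 3 were detected in 0% of non-HE, 9.18% of HE, 48.2% of EHT, 41.1% of IAHC and 24.8% of YS cells at E10. At E11 the shares were 0%, 4.35%, 56.5%, 58.1% of type I and 54.5% of type II pre-HSCs, 60.2% of c-kit+CD31+ IAHC, 44.9% of c-kit+ IAHC and 37.0% of YS cells. Thinned to 3000 transcripts, the E11 shares were 30.4% of EHT, 38.3% of c-kit+CD31+ IAHC, 11.2% of c-kit+ IAHC and 13.0% of YS cells. All 6 were seen together in 1 E10 EHT cell and 1 E11 EHT cell. A further split, chosen after the levels were seen, set Runx1 and Gfi1 against Gfi1b, Myb and Sfpi1. Only the first pair was detected in 28 of 98 E10 HE cells and both groups in 6, whereas both groups were detected in 106 of 191 E10 EHT cells and only the first pair in 37. In E11 HE the counts were 10 and 0 of 46 cells. In E10 YS cells the last 3 genes were seen alone in 72 of 141 cells. Runx1, Gfi1, Myb and Sfpi1 were detected together in 15 of 191 E10 EHT, 8 of 73 E10 IAHC and 23 of 201 E11 c-kit+CD31+ IAHC cells, and in no YS cell at either stage.

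**Figure D4:**
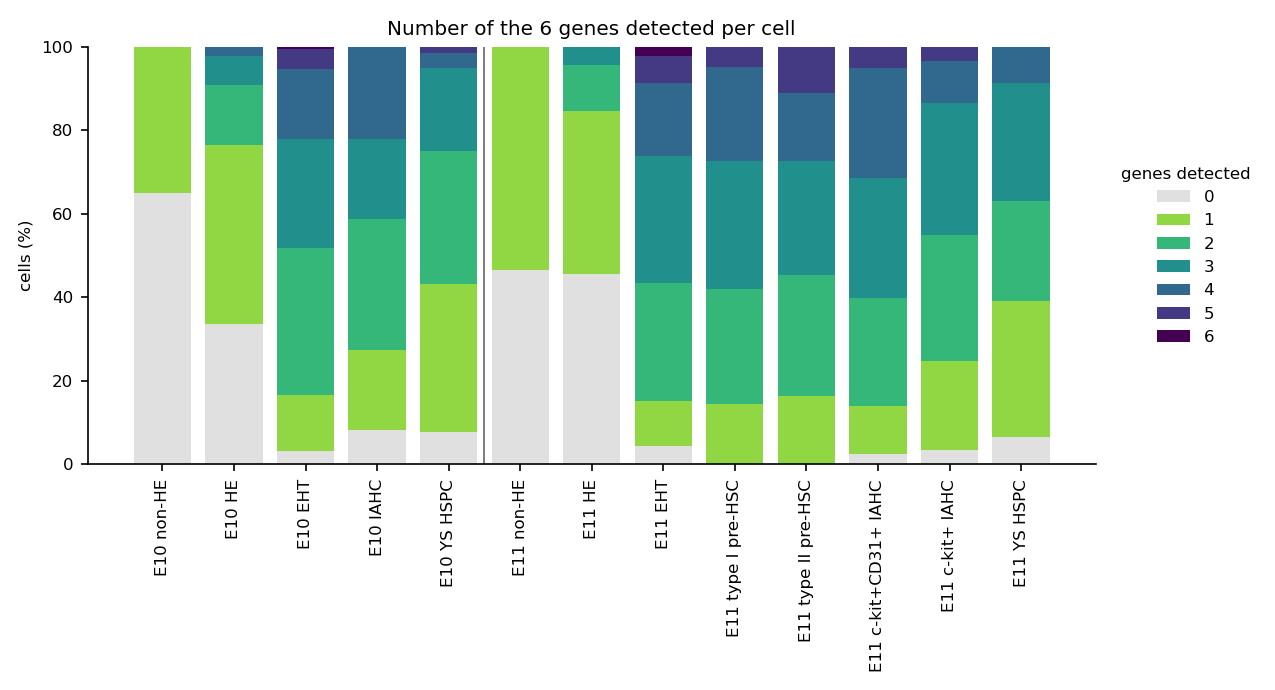
Share of cells (vertical axis, percent) in which 0 to 6 of the genes were detected, by population; E10 cells hold 3000 and E11 cells 5000 transcripts, so shares are compared within a stage. Cells with 3 or more genes make up 9.18% of E10 HE and 48.2% of E10 EHT cells.

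Pairs were next compared with the number of cells in which their separate shares, multiplied, would place both. In E10 EHT cells the count of cells with both genes divided by that product lay between 0.77 and 1.23 for all pairs, for instance 50 cells with Gfi1 and Sfpi1 where the product gives 45.2 and 44 with Myb and Sfpi1 where it gives 42.9. In E10 HE cells Runx1 and Gfi1 were detected together in 10 cells against 4.68, and Gfi1 was seen in 58.8% of Runx1-positive and 21% of Runx1-negative cells. There, 5 of the 6 Sfpi1-positive cells also held Gfi1. In E10 IAHC cells Myb was seen in 83.9% of Runx1-positive and 47.6% of Runx1-negative cells (26 cells with both against 20). The paralogues were seldom found together in E11 c-kit+CD31+ IAHC cells, with 6 cells against 12.7, but in type II pre-HSCs there were 6 against 3.45. Counted from 2 transcripts per gene, 43 of 102 of these quotients moved beyond their counting interval, in E10 EHT cells that of Runx1 and Gfi1 from 1.04 to 0.27. These counts are descriptions; a transcript missed in a cell cannot be told from one that was not there.

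E10 EHT cells with a transcript of Sfpi1, Myb or Gfi1b held fewer endothelial transcripts than those without. In E10 EHT cells the 18 endothelial genes summed to 8.57 transcripts per cell with Sfpi1 and 14.3 without, in the same direction in all 3 sets, and to 9.35 with Myb and 13.7 without, again in all 3. With Gfi1b the sum was 5.0 against 12.4, in the 2 sets that could be compared. With Gfi1 the sums were 11.6 and 11.7, and with Runx1 11 and 12.2. Macrophage markers in E10 EHT cells were higher with Myb (0.571 against 0.43, in all 3 sets) and Gfi1b (0.737 against 0.471, in both sets). They were also higher with Sfpi1 (0.556 against 0.446, in 2 of 3 sets). Mesenchymal and erythroid markers were lower with Myb in all 3 sets and with Gfi1b in both, while erythroid markers were higher with Sfpi1 in all 3. The part of these cell types was not tested. In the single E11 EHT set the endothelial sums were 14.1 and 36.7 for Sfpi1, 15.9 and 35.9 for Myb and 17.4 and 36.0 for Runx1, but 28.1 and 21.7 for Gfi1. Without the 3 E11 EHT cells that held at least 4 macrophage markers, they were 15.4 and 37.8 for Sfpi1, 15.9 and 40.7 for Myb, 17.7 and 39.7 for Runx1 and 28.7 and 24.7 for Gfi1. In E11 c-kit+CD31+ IAHC cells, cells with Gfi1 held more endothelial transcripts (15.0 against 11, in all 4 sets) and cells with Gfi1b fewer (8.0 against 13.3, in all 3 sets compared). Erythroid markers in these cells were lower with Gfi1 (0.182 against 0.434, in all 4 sets) and, haemoglobins left out, higher with Gfi1b (0.414 against 0.0988, in all 3 sets); their part in the endothelial sums was not tested. Sfpi1 showed no such contrast in those cells (12.4 against 12.7), and in type II pre-HSCs, cells with Sfpi1 held more endothelial transcripts (8.28 against 6.08, in all 3 sets). In E10 YS cells, those with Sfpi1 held 16.7 transcripts of the haematopoietic list against 10.7, and 0.162 against 1.34 of the erythroid markers other than haemoglobins, in both sets. Macrophage markers were also higher with Sfpi1 there (1.27 against 0.490, in both sets), and their part was not tested.

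Across the 13 populations, the genes whose mean level ran most like each factor were ranked by Pearson's r of log2 levels among 2484 other genes (2485 for Gfi1b) with at least 0.5 transcripts per cell somewhere. Gpr56 (0.97), Apoe (0.97) and Itga4 (0.96) ran with Runx1, Morf4l2, Sap18 and Tfg (0.90, 0.89 and 0.88) with Cbfb, and Hlf, Neurl3 and Hmga2 (each 0.92) with Gfi1. Aldh9a1, Fasn and Hdgf (0.97, 0.96 and 0.96) ran with Gfi1b, Nfe2, E130309D02Rik and Nrgn (0.98, 0.96 and 0.95) with Myb, and Dok2 and Fabp5 (0.96 each) with Sfpi1. Between the factors r was 0.93 for Myb and Sfpi1, 0.91 for Runx1 and Sfpi1, 0.06 for Gfi1 and Gfi1b and -0.41 for Cbfb and Myb. The populations share embryos, sorts and stage, so these values describe 13 points. The paper chose its IAHC cells in silico by their Gpr56 transcripts, so the level of Gpr56 in those populations is not independent of that choice.

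The wIAHCs give the same genes in intact clusters. Of 109 libraries, the 57 with at least 5000 transcripts were used, 21 ventral and 7 dorsal at E10 and 17 ventral and 12 dorsal at E11, with totals from 5099 to 115328. In such bulk samples fewer cells of a type and less RNA per cell cannot be told apart, and clusters of one embryo cannot be recognised, so p-values measure the spread between wIAHCs. Runx1 had medians of 2.22 and 2.87 transcripts per 10000 in E10 ventral and dorsal wIAHCs and 2.2 and 1.86 at E11, with lowest values of 0 and highest values of 4.49, 6.69, 5.21 and 4.39. Myb had medians of 2.53, 2.20, 3.10 and 3.58 in the same order, and was found in all 21 E10 ventral wIAHCs, from 0.794 to 4.65. Gfi1b was detected in 8 of 21, 3 of 7, 4 of 17 and 2 of 12 wIAHCs. All 6 genes were seen together in 6, 2, 1 and 0 of them. These detection counts were not taken at equal depth. Median totals per library were 14538, 14063, 12838 and 8244 in the same order, and highest totals 110728, 115328, 54975 and 25968. The groups overlapped for every one of the 6 genes.

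**Figure D5:**
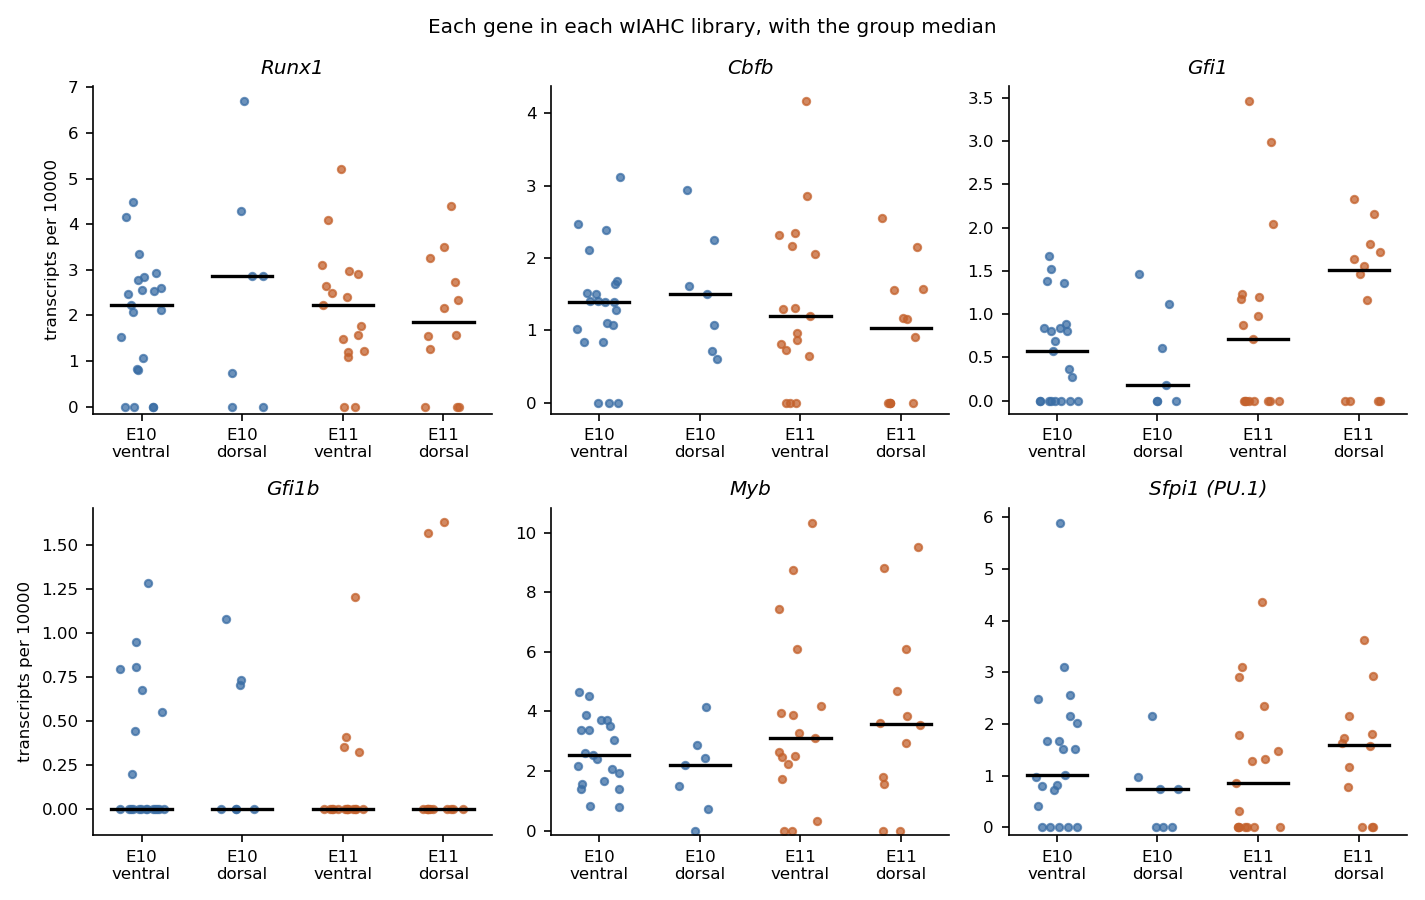
Each gene (vertical axis, transcripts per 10000 transcripts) in each of the 57 wIAHC libraries by stage and side, with the group median as a line. The 4 groups overlap for every gene, and Gfi1b is at 0 in most wIAHCs of each group.

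None of the 6 genes passed the filter on low counts that left 260 genes, of which edgeR's quasi-likelihood test called 31.2% between E10 and E11 on the ventral side, 10% on the dorsal side and 0% between the sides. Fitted with no filter among 13627 genes, none of the 6 was called by edgeR in any comparison. At an unadjusted p under 0.05 were Gfi1b between stages on the ventral side and Sfpi1 between the E10 sides with edgeR, and Cbfb between stages on the dorsal side with DESeq2. Of all those genes 2.17% were called between stages on the ventral and 0.704% on the dorsal side, 0.022% between sides at E10, 0.00734% between sides at E11 and 0.0147% in the interaction of stage and side. The nearest was Gfi1b on the ventral side, with a pooled level of 0.475 transcripts per 10000 at E10 and 0.120 at E11 (log2 fold change -1.56 ± 0.55 SE, edgeR adjusted p = 0.106); it passed the test when wIAHCs from 2000 transcripts were included (-1.44, adjusted p = 0.0366), and its edgeR adjusted p ranged from 0.0366 to 0.236 over the alternatives, while DESeq2 gave an unadjusted p of 0.0941 and no adjusted p. On the same side the log2 fold change in the unfiltered edgeR fit was 0.66 ± 0.40 SE for Gfi1 (adjusted p = 0.463), -0.59 ± 0.35 for Sfpi1 (0.462), 0.26 ± 0.28 for Myb (0.651) and -0.28 ± 0.31 for Runx1 (0.659). Between the sides Sfpi1 at E10 came closest, with medians of 1.02 and 0.732 transcripts per 10000 in ventral and dorsal wIAHCs (log2 fold change 1.0 ± 0.50 SE, edgeR adjusted p = 0.818). Erythroid markers moved with stage in these clusters, with medians of 1.5 and 3.01 transcripts per 10000 at E10 ventral and dorsal and 30.3 and 19.0 at E11. Medians of mesenchymal markers were 0.337 and 0.174 at E10 and 1.93 and 3.46 at E11, those of macrophage markers 1.7 and 1.49 and then 0.731 and 0, and those of endothelial genes on the dorsal side 10.8 and then 22. The part of these cell types in the levels of the 6 genes was not tested, and without the 3 wIAHCs above 10% haemoglobin transcripts no direction of the 6 genes changed.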

How the data were processed

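Single cells and wIAHCs were profiled by CEL-Seq. The submitters' processing notes name BWA 0.6.2-r126 and the mm10 build, and the study's methods name RaceID2; the annotation used for counting is not given in the sources used here, and whether counting used strand is not given either. The deposited single-cell tables hold estimated counts of transcripts that the authors down-sampled to one total per cell, with 0.1 added to every value. That 0.1 was subtracted here, which left whole numbers and totals of 3000 at E10 and 5000 at E11. The down-sampling removes depth as a difference between cells of a stage but limits detection of low genes. The deposited wIAHC table holds estimated counts that the authors corrected for collisions among 256 UMIs, without scaling for depth; these were rounded for testing. No cell or wIAHC was a copy of another, and type I and type II sets of the same number shared 0 wells. Doublets were not called here.

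The 6 genes, the other gene lists and the tests were chosen with earlier results of these data known. Besides the 6, up to 4 genes of each list with the largest absolute log2 ratio were eligible to be named, and 3 genes per factor by likeness (for Sfpi1, 1 of them is not reported here), on log2 of the mean at 3000 transcripts plus 0.1. Alternatives were thinning E11 cells, leaving out each sorted set, leaving out cells with at least 4 macrophage markers, the stated rule for IAHC cells, detection at 2 transcripts, and for wIAHCs other scalings, filters and minimum totals. All thinned values came from a single random draw. The wIAHC libraries were compared with edgeR 4.0.16 (quasi-likelihood test, TMM scaling, Benjamini-Hochberg adjustment, threshold 0.05) in R 4.3.3, with DESeq2 1.42.0 as an alternative; a step tested on simulated data preceded the fit. Sides were read from the column names. No gene of the 6 passed edgeR's default filter in the libraries of at least 5000 transcripts, so their fold changes come from the fit without a filter. Other values were computed with python 3.11.15, numpy 2.4.6, scipy 1.17.1 and pandas 2.3.3, figures were drawn with matplotlib 3.10.9, and genes were placed with GENCODE release M21.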

Additional observations from a re-analysis of the deposited data

Results flagged for a closer look

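The 52 wIAHC libraries with fewer than 5000 transcripts entered no comparison except the alternative that took libraries from 2000 transcripts, and 5 of the 6 genes were found in them above the 3 transcripts that a count of 0 allows. Together they held 100355 transcripts, with a median of 1800 per library. Runx1 had 15 transcripts in 11 libraries (1.5 per 10000), Cbfb 12 in 10 (1.2), Gfi1 7 in 7 (0.699), Myb 18 in 9 (1.81) and Sfpi1 17 in 12 (1.7). Gfi1b had 3 transcripts in 3 libraries, which is not above that limit. Among the groups used, only the 7 E10 dorsal wIAHCs were few enough for the test of a single outlying value, and none of the 6 genes had one.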

How the results depend on the processing

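At 3000 or 5000 transcripts per cell a gene at 0.2 transcripts per cell is missed in most cells, no population has more than a single sample, and the wIAHC test had too little depth for the filter to keep any of the 6 genes. No paired analysis was possible between samples, because no population came from more than a single sample. Pre-HSCs of both types were sorted within the same sample, so their comparison is not between samples. Type I and type II pre-HSC sets carry matching numbers, and weighing their ratios within sets of the same number (a replicate block chosen after seeing the data) called 0 of 5 genes higher or lower, as in the pooled cells, with Gfi1 at -0.61; within the 3 sets Gfi1 was at -1.32, 0.029 and -1.50. No group of wIAHCs held 2 to 5 libraries, so leaving out each in turn did not apply, and in its place the deepest library of each group was left out, an alternative chosen after seeing the data, as was the limit of 20 transcripts.

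Of the values for the 6 genes in single cells under the alternatives, 940 moved by less than their counting interval and 124 by more, 65 of these on counting a gene only from 2 transcripts. The number of the 6 genes at least 2-fold apart ranged, on leaving out a sorted set in turn, from 0 to 2 higher in E10 HE over non-HE, from 1 to 2 higher in E10 IAHC over YS cells, from 0 to 1 lower in type II against type I pre-HSCs, from 0 to 1 higher in c-kit+CD31+ against c-kit+ IAHC cells, and from 0 to 1 lower in c-kit+CD31+ IAHC against E11 YS cells. Under the stated rule for IAHC cells 1 gene was higher and 0 lower than in E10 YS cells. With E11 cells thinned, 1 gene was lower in type I pre-HSCs than in EHT cells, 1 was higher in c-kit+CD31+ IAHC than in EHT cells, and 3 in place of 4 were higher in E11 EHT than in HE cells, Sfpi1 falling under 20 transcripts. Of 102 co-detection values, 43 moved beyond their counting interval on counting from 2 transcripts and 0 without the cells with macrophage markers, and of 65 with E11 cells thinned 5 did. Of the 3 genes most like each factor, 1 or 2 stayed with a pseudocount of 0.5 for every factor except Cbfb, which kept 3.

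Among wIAHCs, 81 and 26 of 260 genes were called between stages on the ventral and dorsal sides, and 0 between sides at E10, between sides at E11 or in the interaction of stage and side (21, 23 and 26 at an unadjusted p under 0.05, and 0 with DESeq2). Without a filter edgeR called 296, 96, 3, 1 and 2 genes in that order, and with a minimum of 10000 transcripts 131 ventral and 4 dorsal, where Myb alone of the 6 passed the filter and was not called (edgeR adjusted p = 0.16 ventral and 0.415 dorsal). Gfi1b on the ventral side passed the edgeR test with a minimum of 2000 transcripts (log2 fold change -1.44, adjusted p = 0.0366). Among the fold changes of the 6 genes under the alternatives, 18 changed direction, and none of these was called. On the ventral side Cbfb was at -0.084 with DESeq2 and -0.23 with the minimum of 2000. Between sides at E10 Cbfb was at 0.080 with the minimum of 2000. Between sides at E11, scaling by RLE gave -0.014 for Runx1, -0.36 for Gfi1, -0.23 for Myb and -0.38 for Sfpi1. There, the minimum of 2000 gave 0.22 for Gfi1b, -0.11 for Myb and -0.0018 for Sfpi1, the minimum of 10000 gave 1.75 for Gfi1b and -0.048 for Sfpi1, and the limit of 20 transcripts gave 0.0020 for Gfi1b. In the interaction, the collection set as a covariate gave 0.020 for Gfi1 and 0.15 for Myb, DESeq2 gave 0.016 for Myb, and the minimums of 2000 and 10000 gave 0.18 and 1.5 for Gfi1b. The cause of these changes was not tested.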
